A study of Mus musculus with 24 samples.

Results

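The genes described here encode proteins of the cytosolic ribosome. They were taken from the array annotation by symbol: Rpl or Rps with a number, plus Rpsa, Rplp0 and Rplp2, leaving out pseudogenes, ribosomal S6 kinases and any probe set that lists several genes. Of 12394 genes measured by a probe set of a single symbol, 48 met the rule: 26 of the large subunit and 22 of the small subunit. Each was read from the probe set with its highest mean, and values are log2(intensity + 16) throughout.

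The 24 Affymetrix arrays hold mouse cerebellum, tumors and tumor-derived cells. Wild-type cerebellum gave 2 arrays at P6 (postnatal day 6, when granule neuron precursors divide) and 1 in the adult. Replicate 2 at P6 is so named by its title, while its age label differs, and it was grouped by the title. Primary medulloblastoma (MB), a cerebellar tumor, gave 3 arrays from Ptch1 mutant adult mice, in which loss of the receptor Ptch1 releases the Sonic hedgehog (Shh) pathway. The lines SMB21, SMB55 and SMB56 came from spontaneous tumors of Ptch+/- mice and grew as neurospheres in DMEM/F12 with B27, without added growth factors in the parental state. Parental cells gave 4, 2 and 2 arrays, in that order of lines. Growth factor cells (GF, 1 array per line) had spent over 3 weeks in medium with heparin, 20 ng/mL EGF and as much bFGF. RAS transformed cells gave 3, 2 and 2 arrays. The labels used here give neither the RAS construct nor the mouse strain. They call replicates biological without naming cultures or animals, so every p-value measures the spread between these samples, which may be technical. The adult group is a single array, assumed in every test to vary like the others.

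Ribosomes join a small subunit, which decodes the mRNA, to a large subunit, which forms the peptide bond. Each protein is needed in about equal number, and the mRNAs of most carry a run of pyrimidines at their very 5′ end, through which growth signals acting on mTOR set their translation. Myc family factors raise ribosome production, and Mycn is a known driver of growth in granule neuron precursors. A few proteins have paralogs, such as Rpl22 and Rpl22l1, Rps27 and Rps27l, or Rpl3 and the muscle form Rpl3l. Arrays read mRNA level, not translation or ribosome number.

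The windows below show 40 bases of RefSeq sequence (GRCm38.p6), 25 before the annotated start and 15 from it, with the longest pyrimidine run in capitals. They are shown because a run at the 5′ end of the mRNA is known for most of this family, and the genes were picked for their place in the results. Rps6, Rpl14, Rpl22l1 and Rps9 were the members with the largest falls in RAS transformed SMB55 cells. Rplp2 and Rpl38 differed little between RAS and parental cells, and Rpl12 and Rps27 had probe sets that diverged. Rps6 lies at chr4:86857353-86857392 on the minus strand, Rpl14 at chr9:120571492-120571531, Rpl22l1 at chr3:28805483-28805522 and Rps9 at chr7:3704016-3704055, all 3 on the plus strand. Rplp2 at chr7:141447626-141447665, Rpl38 at chr11:114668555-114668594 and Rpl12 at chr2:32961687-32961726 lie on the plus strand, and Rps27 at chr3:90213634-90213673 on the minus strand.
Rps6: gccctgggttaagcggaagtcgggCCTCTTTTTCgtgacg
Rpl14: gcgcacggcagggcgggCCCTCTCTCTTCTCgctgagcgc
Rpl22l1: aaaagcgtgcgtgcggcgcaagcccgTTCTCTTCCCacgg
Rps9: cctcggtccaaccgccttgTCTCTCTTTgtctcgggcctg
Rplp2: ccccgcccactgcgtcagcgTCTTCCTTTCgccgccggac
Rpl38: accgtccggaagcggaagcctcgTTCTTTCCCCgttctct
Rpl12: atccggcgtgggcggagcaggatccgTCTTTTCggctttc
Rps27: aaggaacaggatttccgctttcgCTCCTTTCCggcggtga
The run was 10 bases in Rps6, 14 in Rpl14, 10 in Rpl22l1 and 9 in Rps9. It was 10 in Rplp2, 10 in Rpl38, 7 in Rpl12 and 9 in Rps27. Several runs begin before the annotated start, so the capitals need not mark the 5′ end of the mRNA. Whether run length goes with the RAS difference was not tested. An annotated start is not a start measured in these cells.

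RefSeq promoter windows of 300 bases (250 before and 50 from the start) were found for 42 of the 48 genes. Rps29, Rps20, Rps14, Rpl8, Rpl7 and Rps4l had no entry. A pyrimidine run of at least 8 bases lay in 21 of the 50 short windows of these genes (42%), against 16.6% of 32851 windows of all genes. The letters CGGAAG, searched on both strands, occurred in 29 of the 42 genes (69%), against 18.8% of 27025 genes. The letters CTTTCC occurred in 22 (52.4%), against 29.3%. CACGTG was in 4 (9.52%, against 8.09%) and TATAAA in 6 (14.3%, against 15.7%). Rpl14 held CACGTG, Rpl22l1 held TATAAA, Rps9 held CTTTCC, and Rps6, Rplp2 and Rpl12 held CGGAAG. Rpl38 and Rps27 held both CTTTCC and CGGAAG, and matches may share bases. A match describes the letters, not a bound factor.

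Ribosomal protein genes were among the brightest features on every array. Their median level was 14.16, against 8.36 over all genes, and 34 of them were among the 124 genes of highest mean level. Intensity is not scaled by length or probe affinity, so these levels do not order the genes by mRNA number. The 36 members with a mean level of 12 or more, a split chosen after the data were seen, had a median of 14.37. The highest single value on the arrays was 15.04, so these probe sets sat near the top of the scale, where differences can be compressed. The 12 dimmer members were Rpl37 (11.18), Rpl7l1 (10.65), Rps6 (10.62), Rps25 (10.45), Rpl12 (9.25), Rpl14 (9.19), Rpl27a (8.70), Rps27 (8.54), Rpl39 (7.13), Rps4l (6.21), Rpl3l (5.61) and Rpl39l (5.31). Several of these names have brighter probe sets that also list a near-identical copy, described further on. Rplp1, Rps27a, Rpl3, Rpl10 and Rpl10l were not measured by a single-symbol probe set and were not analysed here.

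The bright members varied little across arrays. Their median SD over the 24 arrays was 0.22, against 0.43 over all genes. Rpl38, a large subunit protein known for its part in the translation of Hox mRNAs, had the smallest SD (0.07), with values from 14.38 to 14.67. Rpl39l, the paralog of Rpl39 known from testis, was dim and steady, from 5.17 to 5.45. Rpl13a and Rps29 were the other two of the 4 steadiest. The largest SDs belonged to Rps4l (1.64), a copy related to Rps4x, then to Rpl22l1 (0.95), Rps6 (0.81), the substrate of the S6 kinases, and Rpl12 (0.81), which sits at the base of the stalk.

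The summed intensity of the 48 probe sets, as a share of all genes, followed the groups. It was 5.11% and 5.15% at P6, 3.57% in the adult, and 5.29%, 5.59% and 5.36% in MB. Parental SMB21 cells gave 5.78%, 5.50%, 5.40% and 5.48%, SMB55 cells 5.57% and 5.58%, and SMB56 cells 5.47% and 5.26%. With growth factors the shares were 5.47% (SMB21), 5.37% (SMB55) and 4.79% (SMB56). RAS transformed cells gave 4.79%, 4.89% and 5.24% in SMB21, 3.87% and 4.27% in SMB55, and 4.42% and 4.53% in SMB56. The adult array was the lowest of all, and the RAS arrays of each line lay below every parental array of the same line. In bulk RNA, fewer cells of a type and less RNA per cell cannot be told apart.

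**Figure D1:**
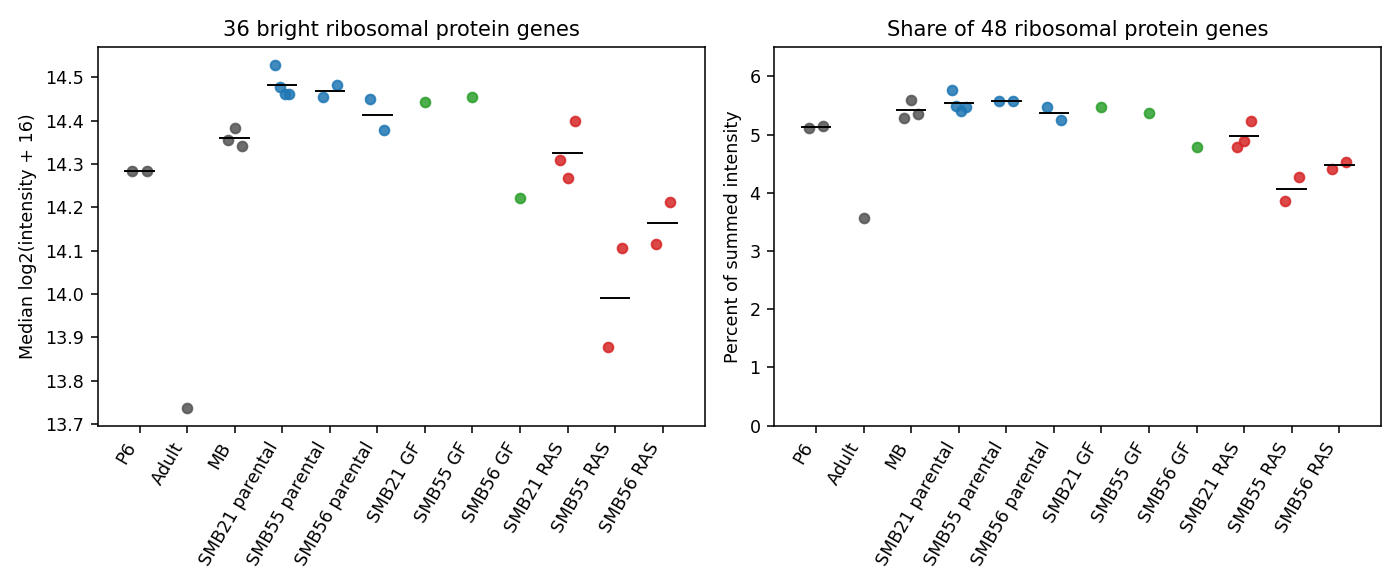
Left, the median log2(intensity + 16) of the 36 bright ribosomal protein genes on each array by group. Right, the percent of summed intensity held by all 48 on a scale from 0. Each point is an array. The adult array sits lowest at 3.57%, and the shares of RAS arrays sit below those of the parental arrays of their line.

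Facts of the whole data set that touch these results were few. Array medians over all probe sets lay between 188.8 and 245.1 intensity units. Proliferation markers (5 of 6 measured) summed to 4624 in the adult, 34060 to 35320 at P6, 34860 to 42300 in MB, 35130 to 46480 in parental cells, 36210 to 41920 in GF cells and 18210 to 32070 in RAS cells. Granule neuron precursor markers (6) summed to 25130 in the adult, 35050 to 38010 at P6, 42080 to 46510 in MB, 14960 to 27460 in parental cells, 4266 to 13690 in GF cells and 2426 to 12900 in RAS cells. The precursor marker sum was thus highest in tumors, overlapped the adult level in parental cells and was lower in GF and RAS cells. Single genes did not all follow the sum. Atoh1 read 6.58 in the adult and 11.79 to 12.97 in parental cells, and Barhl1 read 6.44 and 9.01 to 10.38. Of the 6 genes, 1 was called higher in parental cells than at P6 and 2 lower. Proliferation markers in GF cells lay within the parental range. Gene differences in the next paragraphs come from limma, with p-values adjusted by Benjamini-Hochberg over all 12394 genes, and "called" means an adjusted p under 0.05.

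Between the growing and the adult cerebellum, ribosomal protein mRNAs were higher at P6. Of 48, 22 were called higher and 1 lower, where 19.2% of all genes were called (10.3% higher and 8.85% lower). The median difference was 0.49, against -0.03 over all genes, and 45 of 48 differences were above 0. By subunit, 12 large subunit genes were higher and 1 lower (median 0.52), and 10 small subunit genes were higher and 0 lower (median 0.42). All 36 bright members had a higher mean at P6, and 19 of them were called. The adult array lay below every P6, MB and parental array for 38 of 48 members (79.2%), against 22.1% of all genes. The 23 calls became 14 without P6 replicate 1, 12 without P6 replicate 2, and 10 with the replicate block or with plain probe sets only. The exceptions to the low adult level were Rpl13a, Rpl22l1, Rpl27a, Rpl38, Rpl39l, Rpl3l, Rpl7l1, Rps27, Rps4l and Rps7.

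Among small subunit genes, Rps18 read 14.42 and 14.46 at P6 and 13.35 in the adult, a difference of 1.10 (SE 0.11, adjusted p = 0.000988, limma). Rps19, the gene most often mutated in Diamond-Blackfan anaemia, read 13.85 and 13.84 against 12.77 (1.08, SE 0.16, adjusted p = 0.00531, limma). Both P6 arrays stood about 1 log2 unit above the adult array for each gene. Rpsa, also known as the laminin receptor, read 14.38 and 14.42 against 13.46 (0.94, SE 0.11, adjusted p = 0.00182, limma). Rps4x, encoded on the X chromosome, differed by 0.70 (SE 0.11, adjusted p = 0.00607, limma). Rps6 read 10.84 and 10.82 against 10.35, and its difference of 0.48 (SE 0.13, adjusted p = 0.0391, limma) was lost under 14 of 19 alternatives. The Rps18 call held in 18 of 19 alternatives and turned to -0.34 when only probe sets of the plain type were read.

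Among large subunit genes, Rpl14, a core protein of the large subunit, read 8.95 and 8.90 at P6 and 7.66 in the adult, 2.40-fold higher (1.27, SE 0.18, adjusted p = 0.00421, limma). This rests on 1 dim set: its 5 brighter sets that also list a pseudogene (13.23 to 14.06) differed by 0.12 to 0.49, without a call. Rplp0, the core of the acidic stalk that recruits translation factors, read 14.23 and 14.24 against 13.16 (1.07, SE 0.11, adjusted p = 0.00118, limma). The 2 P6 arrays lay close together for both genes, and the adult array was well below them. The other measured stalk gene, Rplp2, read 14.46 and 14.42 against 14.05, with a difference of 0.39 that was not called (adjusted p = 0.0863, limma). Rpl22 differed by 1.04 (SE 0.15, adjusted p = 0.00378, limma), while its paralog Rpl22l1 was level at 13.74 and 13.79 against 13.68 (difference 0.09, not called). Rps27l, the paralog of Rps27 known as a p53 target, showed the widest called gap, 13.35 and 13.46 against 11.97 (2.70-fold, 1.43, SE 0.14, adjusted p = 0.000881, limma). Its partner Rps27 had a difference of -0.18 that was not called. The muscle form Rpl3l, near the bottom of the scale at 5.53 and 5.43 against 6.17, was the only member called lower at P6 (-0.69, SE 0.17, adjusted p = 0.0350, limma), a call lost under 8 of 18 alternatives.

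Primary tumors also had higher levels than the adult cerebellum, in a comparison that shares the adult array with the previous one and so gives no separate support. In MB, 30 members were called higher and 2 lower, where 30.9% of all genes were called (15.2% higher and 15.7% lower), with a median difference of 0.55 against 0.03 over all genes. Rps27l differed by 1.40 (SE 0.14, adjusted p = 0.000421, limma), Rpl14 by 1.57 (SE 0.17, adjusted p = 0.000754, limma) and Rpl12 by 1.75 (SE 0.29, adjusted p = 0.00409, limma). Rpl12 read 8.74, 9.35 and 9.36 in MB and 7.40 in the adult, so the groups did not overlap. Rplp0 (1.21), Rpsa (1.10) and Rpl22 (1.16) were called too, and Rplp2 was called at 0.54 (SE 0.12, adjusted p = 0.0159, limma). Rps25, a small subunit protein needed for some internal ribosome entry, was second by size at 1.69 (SE 0.50, adjusted p = 0.0406, limma). Its MB arrays ranged widely (10.12, 11.14 and 9.68, against 8.62 in the adult), and the call was lost under 8 of 19 alternatives. The largest rises (Rpl12, Rps25 and Rpl14) rest on dim chosen sets (9.25, 10.45 and 9.19). A brighter shared Rps25 set (14.05) differed by 0.38 between P6 and the adult and 0.12 between MB and P6. For the shared Rpl12 sets (13.97 and 13.78) these were 0.67 and 0.99, then 0.17 and 0.23. Rpl3l was called lower (-0.55, SE 0.16, adjusted p = 0.0423, limma), lost under 9 of 18.

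Cell markers moved with the adult contrast. The 4 mature granule neuron markers summed to 20270 in the adult, 3834 to 4279 at P6 and 3333 to 12000 in MB. The oligodendrocyte markers (3 of 4 measured) summed to 33360 in the adult, 5921 to 8939 at P6 and 191.8 to 879.8 in MB. The adult array was thus highest for both lists and lowest for the 5 proliferation markers, all 5 of which were called lower than at P6 and in MB. Their part in the ribosomal protein difference was not tested. The scale also matters. Centring the arrays on bright genes that are not members lowered the median P6 difference to 0.28 (17 higher and 1 lower, all genes at -0.24) and the MB difference to 0.34 (20 higher and 2 lower).

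Between MB and P6 cerebellum, both proliferating, 0 of 48 members were called higher and 1 lower, where 11% of all genes were called (4.3% higher and 6.68% lower). The median difference was 0.07, against 0.05 over all genes, and 35 of 48 were above 0. Rplp0 differed by 0.15, Rps6 by 0.09 and Rpl22l1 by -0.15, none of them called. Rpl14 differed by 0.30 (adjusted p = 0.205, limma).

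The called gene was Rps4l. It read 10.75 and 10.77 at P6 and 9.75 in the adult, but 5.60, 5.62 and 5.72 in MB. MB was called lower than P6 (fitted difference -5.11, adjusted p = 2.66e-06, limma). The tumor values lie near the lowest on the arrays, so the size depends on the background and the pseudocount and is no measured fold. Every one of the 18 SMB arrays was at the low level too: 5.40 to 5.86 in parental cells, 5.56, 5.53 and 5.46 with growth factors, and 5.35 to 5.77 with RAS. The wild-type cerebella and the tumor samples did not overlap, and the call held under all 20 alternatives tried. The parental lines, at the same low level, were called lower than P6 too (adjusted p = 2.29e-06, limma). Rps4l was also called between the cerebella, at 1.01 higher at P6 than in the adult (SE 0.14, adjusted p = 0.00377, limma). Rps4x, its close relative, was not called between MB and P6. Cell markers moved with it: 4 of 4 Purkinje markers (39010 to 39710 in sum at P6, 898.1 to 1404 in MB) and 4 of 5 astrocyte markers (23310 to 24560 and 1374 to 1720) were called lower in MB than at P6. Their part was not tested, and genotype, cell makeup and any strain difference cannot be told apart for this gene.

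**Figure D2:**
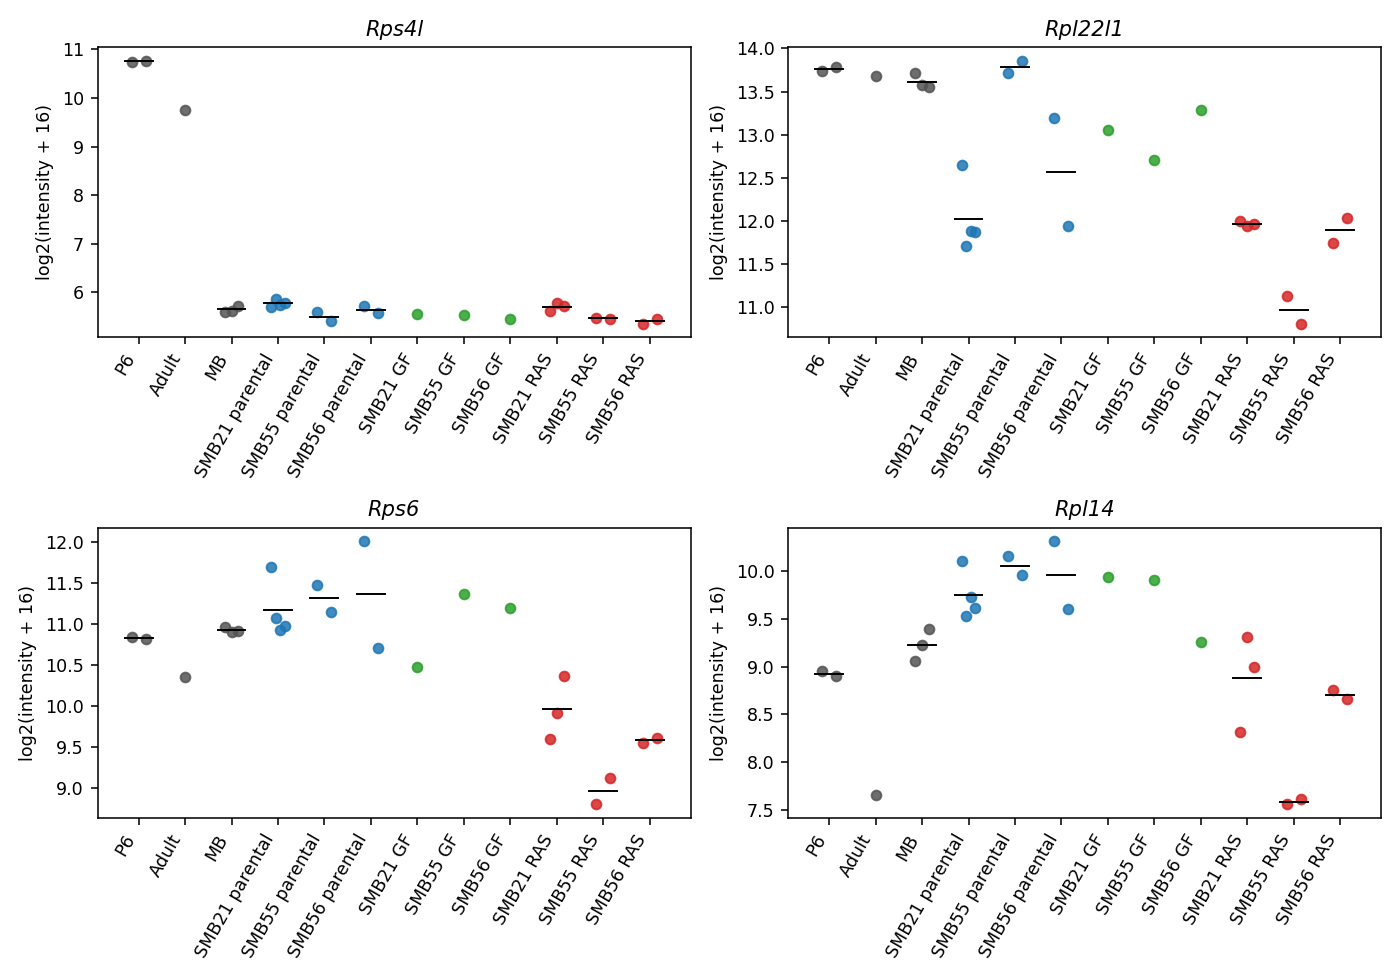
log2(intensity + 16) of Rps4l, Rpl22l1, Rps6 and Rpl14 on each array by group, each point an array, with a separate axis range per gene. Rps4l is above 9 only in the 3 wild-type cerebella. Rps6 and Rpl14 are lowest in RAS transformed SMB55 cells, and Rpl22l1 is low in parental and RAS cells of SMB21, in RAS cells of SMB55 and SMB56 and in parental SMB56 replicate 2.

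Few ribosomal protein genes separated cultured parental cells from primary tumors. With each line counted once, 5 members were called higher than in MB and 0 lower, where 20.6% of all genes were called (12.4% higher and 8.19% lower). The median difference was 0.05, against 0.03 over all genes, with 30 of 48 above 0. The 4 largest rises began with Rpl14, at 9.06, 9.22 and 9.39 in MB and 9.53 to 10.31 in parental cells (0.69, SE 0.12, adjusted p = 0.0109, limma). Its 5 brighter shared sets differed by 0.11 to 0.40, without a call. Rpl8, which lies near the peptidyl transferase centre, read 13.85, 14.09 and 13.85 in MB and 14.16 to 14.45 in parental cells (0.36, SE 0.10, adjusted p = 0.0454, limma). For both genes every parental array was above every tumor. Rps6 also differed by 0.36 (SE 0.08, adjusted p = 0.0255, limma), but its groups overlapped, and Rpl27 by 0.33 (SE 0.08, adjusted p = 0.0358, limma). The calls of Rpl8, Rps6 and Rpl27 were lost under 13 of 20, 13 of 21 and 14 of 21 alternatives, and that of Rpl14 under 2 of 21. Centring on the median of all genes turned the list's median to -0.17 with 1 called each way, where the median of all genes became -0.19. The lines held microglia markers (6) at 176 to 213 in sum, against 8184 to 13530 in MB, and the part of such cells in the tumor values was not tested.

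Rpl22l1 varied widely among parental cells. It read 13.71, 13.58 and 13.55 in MB. Parental SMB55 cells matched this at 13.72 and 13.86, while SMB21 cells read 12.65, 11.71, 11.89 and 11.87 and SMB56 cells 13.20 and 11.94. In SMB21 and SMB56, though not in SMB55, replicate 1 read highest. The parental lines differed in this gene alone among members (adjusted p = 0.0246, limma F test), where 5.08% of all genes were called, and the call was lost under 5 of 27 alternatives. The pooled difference from MB was -0.82 (SE 0.40, adjusted p = 0.192, limma). Its partner Rpl22 stayed within 13.36 to 13.84 over the parental arrays.

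Against P6 cerebellum, 8 members were called higher in parental cells and 1 lower, where 25.6% of all genes were called (14.6% higher and 11% lower). The median difference was 0.15, against 0.08 over all genes. The 4 largest rises were Rpl12 (1.14, SE 0.23, adjusted p = 0.0127, limma), Rpl14 (0.99, SE 0.14, adjusted p = 0.00336, limma), Rpl8 (0.48) and Rps6 (0.45, SE 0.09, adjusted p = 0.0151, limma). Rpl12 read 8.35 and 8.46 at P6 and between 8.59 and 10.31 in parental cells, so the groups were separate. Its parental replicate 1 arrays read 9.16, 8.59 and 9.26, and the later ones 9.72 to 10.31. The rises of Rpl12, Rpl14 and Rps6 rest on dim chosen sets (9.25, 9.19 and 10.62). Brighter shared Rpl12 sets differed by 0.17 and 0.23 between MB and P6, and by -0.03 and 0.05 between parental cells and MB. Rplp0 was called at 0.31 (adjusted p = 0.0354, limma), lost under 13 of 21 alternatives. Without either P6 array the count of calls fell to 2.

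**Figure D3:**
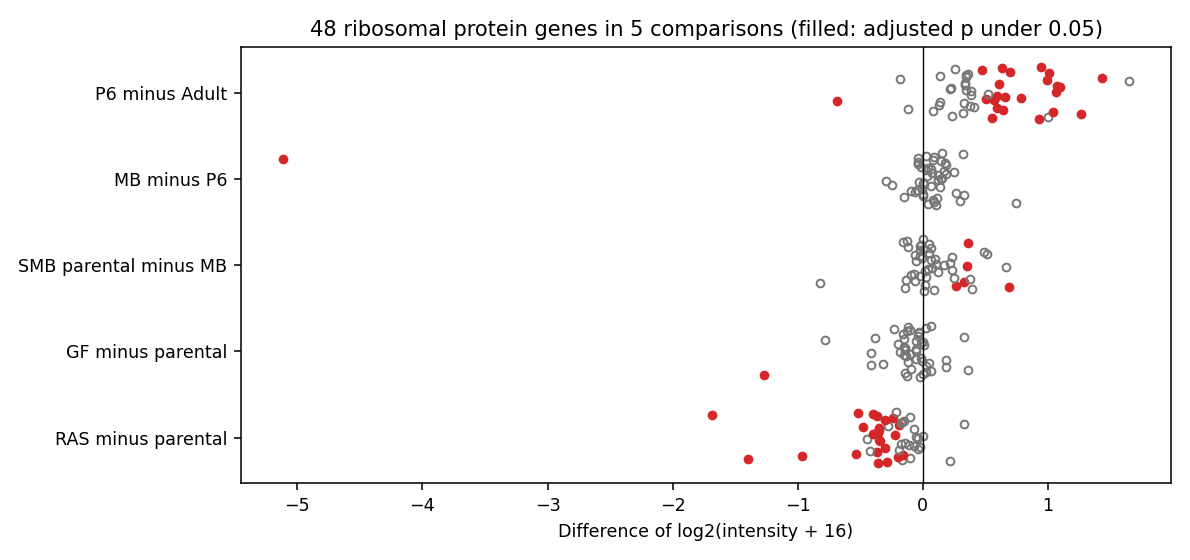
Differences of log2(intensity + 16) for the 48 ribosomal protein genes in 5 comparisons, each point a gene, filled where the adjusted p is under 0.05. Points lie mostly right of 0 for P6 minus adult (45 of 48) and left of 0 for RAS minus parental (46 of 48).

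By the chosen probe sets, few of these genes were called in cells kept with EGF and bFGF, and other sets are described further on. With the line as a covariate, 0 members were called higher and 1 lower, where 8.95% of all genes were called (3.99% higher and 4.96% lower). The median difference was -0.08, against -0.01 over all genes, and 35 of 48 were below 0. The called gene was Rpl12, at 8.99, 7.82 and 8.03 with growth factors (SMB21, SMB55 and SMB56). Parental cells read 9.16, 10.31, 10.06 and 9.72 in SMB21, 8.59 and 10.07 in SMB55, and 9.26 and 9.75 in SMB56. The difference was -1.27 (SE 0.32, adjusted p = 0.0216, limma), with an overlap between the pooled groups, and the call was lost under 7 of 33 alternatives. One of these kept only the parental arrays numbered replicate 1, the number of all growth factor arrays. Those parental arrays read lowest for Rpl12 in each line (9.16, 8.59 and 9.26). Brighter probe sets that list Rpl12 with another symbol differed by -0.08 and 0.01.

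Other members gave values without a call. Rps6 read 10.47, 11.37 and 11.20 with growth factors (-0.23, SE 0.32, adjusted p = 0.755, limma), and Rpl14 read 9.93, 9.90 and 9.26. Rps27l read 13.75, 13.72 and 13.50, above every parental array in SMB21 and SMB55 (0.33, SE 0.12, adjusted p = 0.106, limma). Rpl22l1 read 13.05, 12.71 and 13.29 (0.36, SE 0.46, adjusted p = 0.719, limma), closer together than in the parental lines. The growth factor arrays are all numbered replicate 1, and the parental arrays of that number read 12.65, 13.72 and 13.20. Later parental arrays read 11.71 to 11.89 in SMB21, 11.94 in SMB56 and 13.86 in SMB55. No member responded differently by line in the limma F test, where 1.4% of all genes were called and 4 members had an unadjusted p under 0.05. With 1 array per line the precision is low.

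RAS transformed cells had lower levels of many ribosomal protein mRNAs by small amounts and of a few by large ones. Over the 3 lines, 25 of 48 members were called lower and 0 higher, where 32.1% of all genes were called (14.1% higher and 17.9% lower). The median difference was -0.23, against -0.05 over all genes, and 46 of 48 differences were below 0. Of the small subunit 14 of 22 genes fell (median -0.29), and of the large subunit 11 of 26 (median -0.18). The subunits were not tested against each other. All 36 bright members had a lower mean in RAS cells, and 21 were called. The count depends on SMB55: without that line 11 members were called, without SMB21 18, and without SMB56 19. With a single mean per line and treatment it was 1, and without the replicate 1 arrays of the parental lines it was 14.

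By the chosen probe sets, Rps6 fell most. This rests on a single dim set: its other single-symbol set differed by -0.05, and 9 sets shared with a pseudogene by -0.36 to -0.06. In SMB21 it read 11.70, 11.07, 10.93 and 10.98 in parental cells and 9.60, 9.91 and 10.37 with RAS. In SMB55 it read 11.48 and 11.15 against 8.80 and 9.12, and in SMB56 12.01 and 10.71 against 9.55 and 9.61. No RAS array reached the lowest parental array of any line. The difference was 3.21-fold (-1.68, SE 0.24, adjusted p = 0.000143, limma), from 11.25 ± 0.44 (SD, n = 8) to 9.57 ± 0.51 (SD, n = 7), and it was called under all 33 alternatives tried. Without the parental replicate 1 arrays, which read highest in each line, it was still called.

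Rpl14 was next, with shared sets at -0.46 to -0.33. Parental SMB21 cells read 10.10, 9.53, 9.73 and 9.61 and RAS cells 8.32, 9.31 and 9.00. In SMB55 the values were 10.15 and 9.96 against 7.56 and 7.62, and in SMB56 10.31 and 9.60 against 8.75 and 8.66. Again no RAS array reached a parental one. The difference was 2.63-fold (-1.40, SE 0.24, adjusted p = 0.000575, limma) and held under 32 of 33 alternatives, with an adjusted p of 0.0757 in limma for a single mean per line and treatment.

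The other falls were smaller. Rpl22l1 differed by -0.96 (SE 0.35, adjusted p = 0.0467, limma), with groups that overlapped and a call lost under 18 of 32 alternatives. Rpl27a differed by -0.53 (SE 0.19, adjusted p = 0.0430, limma), lost under 16 of 33. Bright small subunit genes gave tighter values: Rps24, another Diamond-Blackfan gene, fell by 0.48 (SE 0.08, adjusted p = 0.000457, limma) and Rps15 by 0.36 (SE 0.05, adjusted p = 0.000176, limma). Rps9, which helps keep decoding accurate, fell by 0.52 (SE 0.10, adjusted p = 0.00158, limma), and Rps4x by 0.36 (SE 0.06, adjusted p = 0.000622, limma). Among large subunit genes Rpl7 fell by 0.34 (SE 0.08, adjusted p = 0.00534, limma) and Rpl39 by 0.30 (SE 0.07, adjusted p = 0.00336, limma). Rps14, Rps7, Rps18, Rps19, Rps20, Rps3, Rps3a1, Rps10, Rps26, Rpl35, Rpl10a, Rpl7a, Rpl11, Rpl22 and Rpl27 made up the rest, with falls between 0.15 and 0.40 in the chosen sets.

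The stalk genes were different in value. Rplp0 read 14.46 to 14.66 in parental cells and 14.35 to 14.66 with RAS, a difference of -0.05 (SE 0.05, adjusted p = 0.425, limma). Rplp2 read 14.44 to 14.86 and 14.67 to 14.79, with a difference of -3e-04 (SE 0.06). Rpl38 differed by -0.04 (SE 0.05, adjusted p = 0.565, limma). None of these 3 was called, and all sit near the top of the scale. Rpsa differed by -0.21 (SE 0.08, adjusted p = 0.0613, limma). Among paralogs, Rpl7l1 differed by -0.44 (SE 0.16, adjusted p = 0.0515, limma), Rps27l by -0.18 (SE 0.09, adjusted p = 0.163, limma) and Rps27 by 0.33 (SE 0.16, adjusted p = 0.126, limma). Rpl3l (-0.06), Rps4l (-0.10) and Rpl39l (-0.02) were near the floor in both states.

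Ranges separated in every line for a subset. In each of the 3 lines, all RAS arrays were below all parental arrays for 17 of 48 members (35.4%), against 7.81% of all genes. They were Rpl10a, Rpl11, Rpl14, Rpl27, Rpl37a, Rpl39, Rpl7, Rpl7a, Rps14, Rps15, Rps20, Rps24, Rps26, Rps4x, Rps6, Rps7 and Rps9. The reverse held for 0 members, against 6.75% of all genes.

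The size of the RAS difference varied by line. In SMB55, 26 members were called lower (11 large and 15 small subunit) and 0 higher, where 21.5% of all genes were called (10.6% higher and 10.9% lower), with a median of -0.45. In SMB56 10 were lower and 0 higher, where 12% of all genes were called (6.14% higher and 5.9% lower), with a median of -0.21. In SMB21 4 were lower and 0 higher, where 19.4% of all genes were called (9.1% higher and 10.3% lower), with a median of -0.12. The SMB21 count of 4 lay near the background of lower calls. Counts in lines with 2 arrays a group moved with single arrays: in SMB55 the count was 13 without parental replicate 1, 16 without parental replicate 2 and 12 without RAS replicate 1. In SMB56 it was 0 without parental replicate 1 and 2 without either RAS array. In SMB21 it was 0 without RAS replicate 1, 1 without parental replicate 1 or 3, and 2 without parental replicate 4 or RAS replicate 2.

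In SMB55 the largest fall was in Rpl22l1, from 13.72 and 13.86 to 11.13 and 10.81, 7.05-fold (-2.82, SE 0.37, adjusted p = 0.000540, limma). In SMB21 the same gene read 11.71 to 12.65 in parental cells and 12, 11.94 and 11.97 with RAS (-0.06, SE 0.28, adjusted p = 0.913, limma). SMB56 lay between, from 13.20 and 11.94 to 11.75 and 12.04 (-0.67, SE 0.37, adjusted p = 0.264, limma). Rpl14 fell 5.51-fold in SMB55 (-2.46, SE 0.31, adjusted p = 0.000435, limma) and Rps6 5.11-fold (-2.35, SE 0.40, adjusted p = 0.00212, limma). Rps9, the fourth by size, went from 14.18 and 14.16 to 13.03 and 13.28 (-1.01, SE 0.12, adjusted p = 0.000307, limma). Its call was lost when only plain probe sets were read, where it differed by 0.24. Rpsa was called in SMB55 (-0.51, adjusted p = 0.0217, limma), with RAS values of 13.87 and 14.17, while Rplp0 (-0.05) and Rplp2 (0.04) were not.

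In SMB56 Rps6 differed by -1.78 (SE 0.40, adjusted p = 0.0169, limma) and Rpl14 by -1.25 (SE 0.31, adjusted p = 0.0271, limma). Rpl27a followed, from 9.37 and 8.75 to 8.10 and 7.95 (-1.03, SE 0.21, adjusted p = 0.0112, limma), then Rpl41, which encodes one of the smallest known proteins (-0.56, SE 0.13, adjusted p = 0.0235, limma). Rps4x differed by -0.55 (SE 0.10, adjusted p = 0.00728, limma). In SMB21 the 4 called genes were Rps6 (-1.21, SE 0.30, adjusted p = 0.0165, limma), Rpl14 (-0.87, SE 0.24, adjusted p = 0.0255, limma), Rps15 (-0.28, SE 0.08, adjusted p = 0.0330, limma) and Rps24 (-0.26, SE 0.07, adjusted p = 0.0320, limma). Rps24 read 14.57, 14.56, 14.50 and 14.51 in parental SMB21 cells and 14.29, 14.29 and 14.25 with RAS, 2 tight groups that did not overlap. The SMB21 calls of Rps24 and Rps15 were lost under 15 and 10 of 29 alternatives.

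A test of the line by RAS interaction called 4 members, where 3.45% of all genes were called: Rps20 (adjusted p = 0.0189, limma F test), Rpl22l1 (0.0205), Rps9 (0.0440) and Rps19 (0.0490). Rps20 read 14.57 and 14.51 in parental SMB55 cells and 13.78 and 13.63 with RAS. In SMB21 it read 14.47 to 14.54 and then 14.34, 14.41 and 14.44, and in SMB56 14.46 and 14.45 and then 14.12 and 14.27. Rps19 in SMB55 went from 14.13 and 14.16 to 13.29 and 13.35, against 14.15 to 14.34 and then 13.95, 13.97 and 14 in SMB21. SMB55 thus had the lowest RAS values for both. The interaction calls of Rps9 and Rps19 were lost under 19 of 29 and 19 of 28 alternatives. For the other 44 members a difference between lines was not called.

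**Figure D4:**
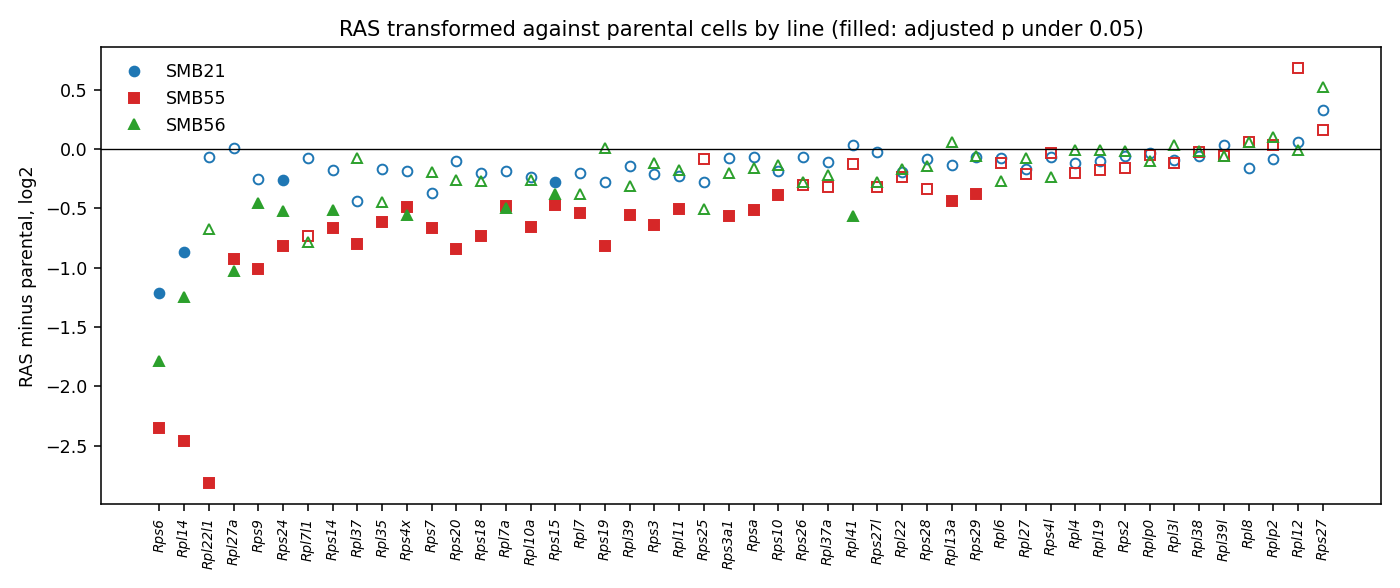
RAS minus parental difference of log2(intensity + 16) in each line for the 48 ribosomal protein genes, filled where the adjusted p is under 0.05. SMB55 shows the largest falls, led by Rpl22l1, Rpl14 and Rps6, and 26 filled points against 10 in SMB56 and 4 in SMB21.

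Against growth factor cells, RAS cells had 2 members called higher and 5 lower, where 11.2% of all genes were called (5.7% higher and 5.45% lower), with a median of -0.17. Rps6 (-1.46, SE 0.33, adjusted p = 0.0129, limma), Rpl14 (-1.26, SE 0.32, adjusted p = 0.0239, limma), Rps27l (-0.51, SE 0.12, adjusted p = 0.0183, limma) and Rps24 (-0.42, SE 0.11, adjusted p = 0.0231, limma) were lower, and Rpl10a (-0.34) was the fifth. Rpl12 was higher, with means of 9.81 and 8.28 and no overlap (1.49, SE 0.32, adjusted p = 0.0105, limma), as was Rps27 (0.71, SE 0.21, adjusted p = 0.0428, limma), a call lost under 18 of 33 alternatives. Both rest on dim chosen sets (9.25 and 8.54), and brighter shared sets went the other way. Against parental cells, those of Rpl12 differed by -0.40 and -0.35 with RAS and by -0.08 and 0.01 with growth factors. That of Rps27 differed by -0.71 with RAS and -0.08 with growth factors. The falls of Rps6 and Rpl14 rest on dim chosen sets too (10.62 and 9.19). Against parental cells, shared Rps6 sets differed by -0.36 to -0.06 with RAS and by -0.23 to -0.01 with growth factors. Shared Rpl14 sets differed by -0.46 to -0.33 with RAS and by -0.21 to -0.03 with growth factors. The Rpl12 call was lost under 5 of 33 alternatives, the replicate block among them (1.16, adjusted p = 0.0822, limma). All growth factor arrays are numbered replicate 1, and the parental arrays of that number read lowest for Rpl12 in each line (9.16, 8.59 and 9.26). The count was 0 without the SMB55 growth factor array or without the whole line, 3 without the SMB56 growth factor array, and 11 without replicate 3 of RAS transformed SMB21.

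Markers moved with RAS as well. The 5 proliferation markers were all called lower in RAS than in parental cells (median -0.50), and 5 of 6 granule neuron precursor markers and 2 of 4 Shh pathway genes were called lower. Endothelium and pericyte markers (4) summed to 108 to 133 in parental cells and 175 to 3460 in RAS cells. Of these 4, 2 were called higher and 2 had differences below 0. Astrocyte markers (5) summed to 580 to 1884 in parental cells and 2918 to 5766 in RAS cells. Only 1 of these 5 was called higher, and 3 had differences below 0, so the higher sum did not hold gene by gene. The part of all these markers in the result was not tested. Scaling mattered here too. Centring on bright genes that are not members gave a median RAS difference of -0.15 with 17 members lower (all genes at 0.03), and -0.05, -0.31 and -0.19 in SMB21, SMB55 and SMB56. Centring on the median of all genes gave -0.31 with 35 members lower (all genes at -0.13). Rps6 and Rpl14 were called lower under both.

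Other probe sets of the same genes were compared because near-identical copies can share signal. For Rps6, the chosen probe set had a mean of 10.62 and a RAS difference of -1.68, and its other single-symbol set, at 6.37, differed by -0.05. The 9 sets that list Rps6 with Rps6-ps4 had levels of 5.80 to 14.60 and differences of -0.36 to -0.06, and 6 of them were called lower. For Rpl14, 5 sets shared with Rpl14-ps1 (13.23 to 14.06) differed by -0.46 to -0.33, all called. The large falls of Rps6 and Rpl14 were thus read only by the dimmer chosen sets, and the bright shared sets gave smaller falls. Which of these reflects the parent gene's mRNA was not tested.

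Rps27 and Rpl12 diverged in sign. The chosen Rps27 set (8.54) differed by 0.33 and was not called, while the set shared with Rps27rt (14.09) fell by 0.71 (adjusted p = 0.0210, limma, over all probe sets). The chosen Rpl12 set (9.25) differed by 0.22, while shared sets at 13.78 and 13.97 fell by 0.40 and 0.35, both called. For Rpl39 the chosen set at 7.13 and a shared set at 14.67 both fell by 0.30. Rps24 had 4 bright sets that fell by 0.48 to 0.77, and dim sets at 8.47 and 5.79 that differed by -0.08 and -0.15. Rps20 had bright and dim sets that all fell, by 0.93 and 1.01 in the dim ones. The second set of Rps9 (12.99) fell by 0.83, its dim set (7.51) differed by -0.01, and the shared set of Rpl27a (14.44) differed by 0.01. The second single-symbol set of Rpl22 (10.87) fell by 1.27, against 0.20 in the chosen set (13.49). Other single-symbol sets of Rpl27 fell by 0.40 and 0.56, against 0.15, and that of Rps15 by 0.64, against 0.36.

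Over all probe sets the direction was the same. Of the 100 sets that list a single member, 56 were called lower in RAS cells (56%) and 0 higher. Of 102 sets that list several symbols, 41 ribosomal symbols among them, 57 were lower (55.9%) and 2 higher (1.96%), where 18.9% of 22626 probe sets were lower and 13.3% higher. Between P6 and adult, 41 single-symbol sets were higher and 1 lower, and 34 of the shared sets were higher (33.3%) and 0 lower, where 9.75% of all sets were higher and 8.2% lower. With growth factors, 8 of the 100 single-symbol sets were lower than in parental cells (8%) and 0 higher. Of all sets, 4.81% were lower and 3.58% higher. These 8 were among the 31 sets under level 12 (25.8%), and 0 of the 69 brighter sets were called. Of the shared sets, 2 were lower (1.96%) and 0 higher. Sets of the same gene share their target, so these are not independent counts.

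**Figure D5:**
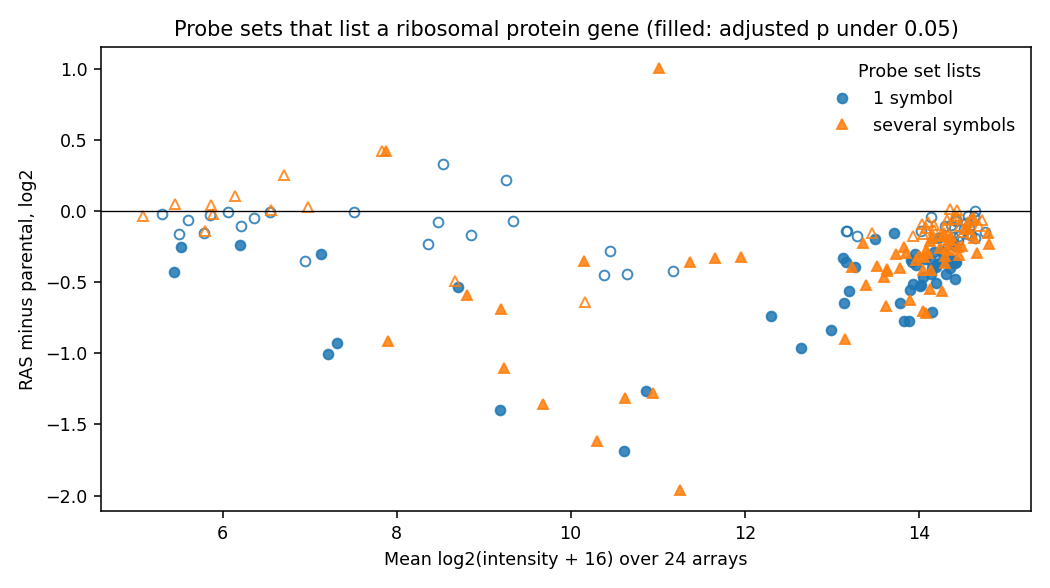
RAS minus parental difference of log2(intensity + 16) against mean level over 24 arrays, for each probe set that lists a ribosomal protein gene alone or with other symbols, filled where the adjusted p is under 0.05. Bright sets mostly lie a little below 0. The lowest point is a set of several symbols (11.25, -1.96), and the chosen Rps6 (10.62, -1.68) and Rpl14 (9.19, -1.40) sets are among the other low points.

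Genes that build ribosomes were read from a separate list, and the shares of all genes called are those given above for each comparison. Of 80 measured ribosome synthesis genes, 31 were called higher at P6 than in the adult and 1 lower (median 0.73). By smallest p they included Ddx10 (1.16, adjusted p = 0.000917, limma) and Rpf1 (1.72, adjusted p = 0.00118, limma), both of the pre-rRNA machinery. In MB 7 were higher than at P6 and 0 lower (median 0.18), among them the rRNA methyltransferase Nop2 (1.00, adjusted p = 0.0106, limma), where 0 ribosomal protein genes were. Parental cells had 23 higher than MB and 0 lower (median 0.40), including Bop1 (1.16, adjusted p = 0.00176, limma). In RAS cells 4 rose and 17 fell (median -0.11), together 26.2% of the list, below the 32.1% of all genes, so the count is no result about the list. The nucleolar methyltransferase Fbl (-0.68, adjusted p = 0.000821, limma) and the RNA polymerase I factor Ubtf (-0.55, adjusted p = 0.000793, limma) were among the falls. These lists were not tested against each other.

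Of 39 measured translation factors, 13 were higher at P6 than in the adult and 0 lower (median 0.48), including the helicase Eif4a1 (1.71, adjusted p = 0.000931, limma) and the elongation factor Eef1b2 (0.83, adjusted p = 0.00380, limma). In parental cells against MB, 10 were higher and 1 lower (median 0.18), with Eif3d at 0.97 (adjusted p = 0.000754, limma). With RAS 2 were higher and 9 lower (median -0.06), Eif2s3x among the lower (-0.46, adjusted p = 0.00122, limma). Together they were 28.2% of the list, against 32.1% of all genes. In growth factor cells 0 were higher and 1 lower, Eif4a2 (-0.71, adjusted p = 0.0263, limma). Fau, which encodes the small subunit protein eS30 but has no Rps name here, was called lower with RAS in SMB55 (-1.20, adjusted p = 0.000184, limma).

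The 71 mitochondrial ribosomal protein genes, which serve a separate ribosome, had a median difference of 0.23 at P6 against the adult (5 higher and 2 lower) and 0.30 in parental cells against MB (22 higher and 2 lower). Mrpl38 had the smallest p of the latter (1.19, adjusted p = 0.000568, limma). With RAS 1 was higher and 27 were lower, 39.4% against 32.1% of all genes (median -0.30), with Mrpl1 at the smallest p (-0.94, adjusted p = 5.74e-05, limma). By line the RAS medians were -0.22 in SMB21, -0.41 in SMB55 and -0.29 in SMB56, with 10, 16 and 1 called lower, where 10.3%, 10.9% and 5.9% of all genes were lower. The called share of the list in either direction was 15.5%, 22.5% and 1.41%, against 19.4%, 21.5% and 12% of all genes.

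Growth regulators were read beside these lists. Mycn read 12.04 and 11.93 at P6, 7.81 in the adult, 12.37 to 13.05 in MB, 10.23 to 12.30 in parental cells and 5.89 to 8.56 in RAS cells. It was 4.17 higher at P6 than in the adult (adjusted p = 0.00419, limma) and fell by 3.80 with RAS (adjusted p = 2.96e-05, limma). In growth factor cells it fell by 2.57 (adjusted p = 0.0149, limma). Mycl fell by 4.33 with RAS (adjusted p = 1.26e-05, limma) and fell by 3.59 with growth factors (adjusted p = 0.00286, limma). Myc was 2.72 higher at P6 than in the adult (adjusted p = 0.0210, limma) and differed by 0.23 with RAS (adjusted p = 0.515, limma). Eif4ebp1, the mTOR-controlled repressor of cap-dependent translation, was 2.30 higher in parental cells than in MB (adjusted p = 0.00605, limma) and differed by -0.05 with RAS (adjusted p = 0.885, limma). The part of these regulators in the ribosomal protein values was not tested.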

How the data were processed

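Total RNA of tissues and cells was biotin labelled and hybridised to Affymetrix arrays, per the labels. The authors deposited 1 linear intensity per probe set and array. The summarisation and normalisation are not given in the sources used here, and array medians ran from 188.8 to 245.1, with MB (188.8 to 197) lowest and RAS (222.7 to 245.1) among the highest. Of 22690 probe sets, 20393 have 1 gene symbol, 691 several and 1606 none in the platform annotation, and all 48 members matched a RefSeq symbol. An array has no read depth, so the number of arrays limits the precision.

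Values were taken as log2(intensity + 16), with the probe set of highest mean per gene, and tested two-sided with limma 3.58.1 in R 4.3.3 (lmFit, eBayes, Benjamini-Hochberg over all genes). Tissues and 1 mean per parental line formed a fit of 4 groups. The 18 cell arrays formed another, with line as covariate or a mean per line and treatment. The script was tested on simulated data. The members and lists were chosen with earlier results of these data known. The genes named are the 4 largest called rises and falls per comparison, the stalk, paralog and small subunit genes listed by name, and those of largest and smallest SD. From the other lists they are the 2 of smallest p per comparison plus Myc, Mycn and Eif4ebp1, of which the text gives part. Fau, short lists of called genes and the shared probe sets were added after their values were seen. Alternatives covered the pseudocount (1 and 64), dim genes, array centring, probe set choice, the variance prior, line means, the replicate block and each array or line left out.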

Additional observations from a re-analysis of the deposited data

Results flagged for a closer look

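In parental SMB21 cells, replicate 1 stood apart from the other 3 arrays in 2 of 32 values examined: Rpl7 read 14.29, against 14.14 to 14.16, and Rps18 read 14.72, against 14.54 to 14.56. Chance alone marks about 1 in 20 such groups. The RAS response differed between lines for Rps20 (adjusted p = 0.0189, limma F test of the interaction), Rpl22l1 (0.0205), Rps9 (0.0440) and Rps19 (0.0490), with SMB55 the line of largest fall for each.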

How the results depend on the processing

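Counts are of called members, with the reported count first. For parental cells against MB (5) the count was 2 with a pseudocount of 1, with dim genes left out and under both centrings, 8 with a pseudocount of 64 and 0 with the 3 cerebella as 1 group. For MB against P6 (1) it was 3 with a pseudocount of 64 or a trended prior, 0 without dim genes and 2 when centred on all genes. For parental cells against P6 (9) it was 5 without dim genes and 4 when centred on all genes. For RAS in SMB21 (4) it was 2 with a pseudocount of 1, without dim genes or when centred on bright non-members, and 7 with a pseudocount of 64. For RAS in SMB55 (26) that centring gave 16. For RAS against GF (7) centring on all genes gave 13. The interaction (4) gave 2 with a pseudocount of 1 or when centred on all genes and 1 without dim genes, and the parental lines (1) gave 2 with a pseudocount of 64.

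With plain probe sets only, the counts were 10 (P6 against adult, 23), 14 (MB against adult, 32), 4 (GF, 1), 8 (RAS, 25), 7 (SMB55), 5 (SMB56, 10), 0 (interaction) and 0 (parental lines), over 24 genes. The mean of all probe sets gave 3 for GF and turned Rps6 in parental cells against MB to -0.14. Plain sets turned Rps18 at P6 against the adult to -0.34, Rps24 to 1.03 for RAS against GF and 0.51 for RAS in SMB21, and Rps9 to 0.24 for RAS in SMB55. A single mean per line and treatment gave 0 for GF, 1 for RAS and 0 for RAS against GF.

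Alternatives chosen after seeing the data left out the replicate 1 parental arrays (RAS 14, SMB21 2, SMB55 17, SMB56 2, interaction 1) or kept them alone (GF 0). Leaving out each array or line gave 1 to 2 for MB against P6, 12 to 25 for P6 against adult, 27 to 31 for MB against adult, 1 to 5 for parental cells against MB, 2 to 9 against P6, 0 to 2 for GF, 11 to 28 for RAS, 0 to 11 for RAS against GF, 0 to 6 for SMB21, 12 to 27 for SMB55, 0 to 10 for SMB56, 0 to 7 for the interaction, 0 to 1 for the GF interaction and 0 to 4 for the parental lines. The causes were not tested.

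The labels give no pairing by replicate number, and not every pair correlated above 0: deviations of same-numbered arrays correlated between -0.154 and -0.02 for RAS and parental cells, at -0.028 and 0.005 for MB and P6, at 0.216, 0.062 and 0.055 for GF and parental cells, and at -0.171, -0.447 and -0.444 for RAS and GF cells. The numbers were not taken as pairs. As a replicate block they gave 10 for P6 against adult, 17 for MB against adult, 0 for parental cells against MB, 3 against P6, 0 for GF, 17 for RAS, 0 for RAS against GF, 0 in SMB21, 12 in SMB55, 0 in SMB56 and 0 for the interaction. Crossing the RAS numbers of SMB55 in the block gave 13 there. Differences of the dimmest members, such as Rpl3l and Rpl39l, are limited by the signal over background.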
